A study of Mus musculus with 12 samples.

Results

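The baseline profile of irradiated wild-type bone marrow stroma was described from the 4 arrays labelled wild-type, of 12 arrays in the series. All 3109 probe sets of the deposited table that are not controls were used, out of 3127 rows. The stroma came from C57BL/6 mice of wild-type genotype, 3 to 4 months old. Their marrow was plated in M5300 medium for 2 weeks, and the adherent layer was irradiated with 1500 cGy before a complete change of medium. No cells were sorted, so haematopoietic cells that adhere to the layer are part of what was measured. The 4 samples are labelled biological replicates, and the labels give neither the number of mice behind a culture nor their sex.

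Stroma is the support layer of the marrow. Its reticular cells, which overlap with adipocyte and osteoblast precursors, secrete Cxcl12, a chemokine that holds blood stem cells in place, and Kitl, the stem cell factor that binds the receptor Kit. Vcam1 anchors blood cells to them, and resident macrophages and sinusoidal endothelium share the same layer. Irradiation stops the layer from dividing, so that it can serve as a feeder for blood cell cultures.

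Signals are GCRMA values on the log2 scale, summarized per probe set. They rank brightness on the array, not the number of transcripts, so orders between genes are descriptions of signal only. The table holds only part of the chip. Across the 12 arrays the smallest interquartile range of a probe set in it was 0.5001, and each probe set reached 6.64, the log2 of 100, on 3 arrays or more. A gene outside the table is not analysed here, and its absence says nothing about its level. Because no second group is compared, differences between the 4 arrays are given as SD and range, with no test of 1 group against another. The Dixon gap, used where it is named, marks a single array far from the other 3.

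Some arrays stood apart before any single gene was considered. The medians and correlations here cover only the rows of the table, which all varied over the 12 arrays, and not the whole chip. Array medians were 8.27, 8.17, 8.09 and 8.02 on wild-type 1 to 4. Wild-type 1 and 3 were the least alike pair (Pearson r over the probe sets, which vary together, of 0.825), and wild-type 1 and 2 the most alike (r = 0.959). The 14 bacterial control probe sets, which read transcripts added in set amounts during the assay, were highest on wild-type 3 and lowest on wild-type 1 in 14 of 14 cases. Their means were 9.42, 10.67, 11.81 and 9.93 on wild-type 1 to 4. The 3 probe sets for 18S ribosomal RNA ran the same way, with means of 8.24, 9.58, 10.15 and 9.38. Xist, which is transcribed from the inactive X chromosome of female cells, lay between 9.63 and 10.95, and the Y-linked Eif2s3y between 8.77 and 10.84, so both were present on each of the 4 arrays.

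The markers that define the layer were all measured and all bright. Cxcl12 stood at 14.72, 14.43, 14.61 and 13.87 on wild-type 1 to 4, a mean of 14.41 ± 0.38 (SD, n = 4), and ranked 2 of 1974 genes with 1 symbol. Kitl stood at 12.25, 11.85, 12.27 and 11.42 (11.95 ± 0.40, SD, n = 4). Vcam1 stood at 11.74, 11.65, 11.34 and 11.06 (11.45 ± 0.31, SD, n = 4). By their brightest probe sets, these 3 genes had their lowest value on wild-type 4, within a range of less than 1 log2 unit. The other Cxcl12 probe set ran from 12.99 on wild-type 4 to 14.41 on wild-type 1. The second brightest Kitl probe set ran from 9.38 to 10.57 on the same arrays. Rgs5, a signalling regulator typical of pericytes, was at 11.78, 10.31, 9.97 and 9.71 (10.44 ± 0.92, SD, n = 4), with wild-type 1 highest. Its other 3 probe sets had means from 5.37 to 7.09 and SDs from 1.21 to 1.69, and each was also highest on wild-type 1. Rgs5 was the brightest of 6 measured pericyte and smooth muscle genes. Their median was 7.63, below the 8.16 of all 1974 genes, and 2 of the 6 had a mean below 6.64. The dimmest of 3 Kitl probe sets ranged from 4.10 on wild-type 4 to 7.24 on wild-type 1, a wider spread than the brightest.

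Among the brightest signals were secreted stromal factors, phagocyte and lysosomal genes, and housekeeping genes. Tmsb4x, an actin-sequestering peptide, had the highest mean (14.74 ± 0.54, SD, n = 4), followed by Cxcl12 and by Lgals1, a galectin (14.37 ± 0.60). Matrix genes among the 25 brightest were Fbln2, a basement membrane protein (13.26 ± 0.48), and Mgp, an inhibitor of calcification (13.20 ± 1.02). Mgp ran from 12.16 on wild-type 3 to 14.36 on wild-type 1, while Fbln2 ran the other way, from 12.60 on wild-type 1 to 13.70 on wild-type 3.

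Genes of phagocytes, lysosomes and uptake receptors followed. In an unsorted layer their signal does not assign them to a single cell type. Cd163, the haemoglobin scavenger receptor of resident macrophages, was at 13.04, 12.85, 12.83 and 13.61 on wild-type 1 to 4. Gpnmb, a lysosomal membrane glycoprotein, had a mean of 13.25 ± 0.25 (SD, n = 4), and the chemokine Ccl6 one of 13.45 ± 0.27. The NADPH oxidase subunit Cyba (13.04 ± 0.64), the lysosomal enzymes Man2b1 (13.66 ± 0.12) and Gusb (13.19 ± 0.12), the endocytic receptor Lrp1 (13.31 ± 0.059) and the fatty acid receptor Cd36 (13.89 to 14.19, SD 0.13) were also among the 25. Apart from Cyba, these had SDs of at most 0.36 over the 4 arrays.

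Immediate early genes, which switch on within minutes of a stimulus, were bright too. Fos was at 14.23, 14.50, 14.34 and 14.14 on wild-type 1 to 4 (14.30 ± 0.15, SD, n = 4). Dusp1, a phosphatase that damps MAP kinases, had a mean of 13.67 ± 0.19, and Nfkbia, the inhibitor of NF-kB, one of 13.66 ± 0.25. Nfkbia was between 13.49 and 13.57 on wild-type 1, 2 and 4 and 14.02 on wild-type 3. Of the other genes among the 25, Rps7, Rps20, Rps29 and Rpl13a encode ribosomal proteins, Cox6a1 a respiratory chain subunit, B2m the light chain of MHC class I and Tmsb10 a relative of Tmsb4x. Nme2, a nucleoside diphosphate kinase, and Slc43a2, an amino acid transporter, completed the set.

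**Figure D1:**
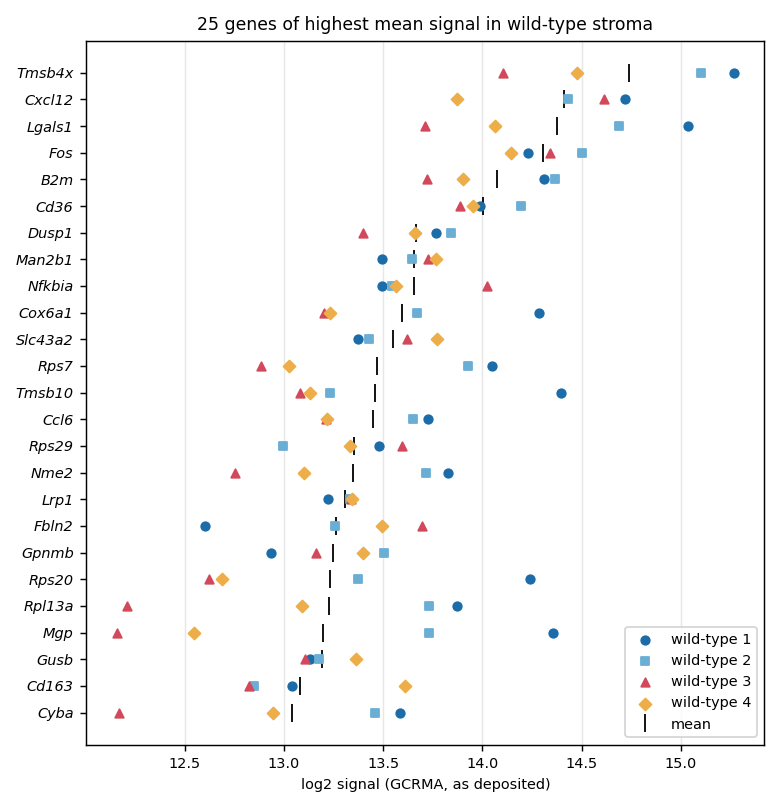
The 25 genes of highest mean signal, each with its log2 signal (x axis) on the 4 wild-type arrays (coloured symbols) and the mean (bar). Cxcl12 has a mean of 14.41 and Lrp1, with an SD of 0.059, is the tightest, while Mgp spreads from 12.16 to 14.36.

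Known markers sorted these signals by cell type. Of 23 reticular and niche genes 15 were measured, with a median of 9.47 against 8.16 over all 1974 genes, and all 15 had a mean of at least 6.64, as did 1690 of the 1974. Among them were Igf1, a growth factor (11.04 ± 0.71, SD, n = 4), the Notch ligand Jag1 (10.29 ± 0.18), and Ebf3 and Foxc1, transcription factors of reticular cells (10.14 ± 0.64 and 9.47 ± 0.38). Angpt1, a ligand of the receptor Tek, had a mean of 8.81 ± 0.37, and Il7, a lymphoid growth factor, one of 7.11 ± 0.24. The dimmest of the 15 was Tnfsf11, the osteoclast-inducing ligand RANKL, at 6.70 ± 0.56.

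Of 16 adipocyte genes 11 were measured, with a median of 9.50. A mean of at least 6.64 was found for 10 of the 11, near the share of 1690 of 1974 over all genes. The lipid-handling genes Scd1 (12.89 ± 0.74, SD, n = 4), Lpl (12.71 ± 0.52) and Fabp4 (12.73 ± 1.18) and the hormone Adipoq (12.11 ± 0.72) were all bright, and Pparg, the master regulator of the lineage, was at 8.97 ± 0.32. Cd36, which macrophages also express, was the brightest member of the list. Retn, the hormone resistin, was the 1 member with a mean below 6.64.

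Matrix, bone and cartilage genes followed. All 14 measured of 29 fibroblast and matrix genes had a mean of at least 6.64, against 1690 of 1974 genes, with a median of 10.26. They included Fbln2, the collagen chain Col6a3 (12.56 ± 0.25, SD, n = 4), Thbs1 (12.29 ± 0.26) and Col3a1 (10.59 ± 0.26). As deposited, their median SD was 0.32, below the 0.41 of all genes. None of the 14 had an SD of 1 or more, against 8.31% of all genes. Under quantile normalization the median SD of the 14 became 0.42. Osteoblast genes were present as 4 of 13, led by the bone sialoprotein Ibsp at 11.98 ± 0.53, with Alpl, alkaline phosphatase, at 8.03 ± 0.37. Of 15 cartilage genes 3 were measured, with Prg4, a joint lubricant, at 10.94 ± 0.53 and Comp at 10.18 ± 0.54, both highest on wild-type 3. Col2a1, the main collagen of cartilage, was at 8.05, 9.03, 7.58 and 7.67 on wild-type 1 to 4, highest on wild-type 2 and lowest on wild-type 3.

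Of the macrophage markers 7 of 23 were measured, with a median of 10.85. Besides Gpnmb and Cd163 these were the scavenger receptor Marco (12.71 ± 0.37, SD, n = 4), the endotoxin co-receptor Cd14 (10.85 ± 0.28), the Fc receptor Fcgr1 (10.62 ± 0.16), the calcium-binding Aif1 (8.60 to 11.13) and Ms4a7 (9.26 ± 0.26). Chil3, a chitinase-like protein of myeloid cells, was the 1 of 17 granulocyte genes measured (12.64 ± 0.16), and Clec10a, a lectin of macrophages and dendritic cells, was at 12.23 ± 0.53. Osteoclast genes were Ctsk (11.66 ± 0.19), Acp5 (9.75 ± 0.82) and Mmp9 (9.18 ± 1.05), 3 of 9. All 3 were lowest on wild-type 3, as were 41.1% of all genes. Under quantile normalization and under median centring 2 of the 3 were lowest there. In such a mixed layer, fewer cells of a type and less RNA per cell cannot be told apart.

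For lymphoid and erythroid cells the table gives no value. None of 13 B and plasma cell, 14 T and NK cell and 13 erythroid genes was measured. Of 12 mast cell, basophil and eosinophil genes only Kit was, and of 8 megakaryocyte genes Pf4 (12.35 ± 1.19, SD, n = 4), a platelet chemokine, and Treml1 (7.01 ± 0.35). Among 8 progenitor genes Procr was at 9.80 ± 0.33, Kit at 7.07 ± 1.05 and Cd34 at 6.48 ± 1.21. Kit and Cd34 are also found on other cells of the marrow, mast cells and endothelium among them, and so are not specific to blood progenitors. Schwann cell genes were 2 of 7, Mbp at 8.49 ± 0.15 and S100b at 7.19 ± 0.25. Sox10, a transcription factor of those cells, was not measured.

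**Figure D2:**
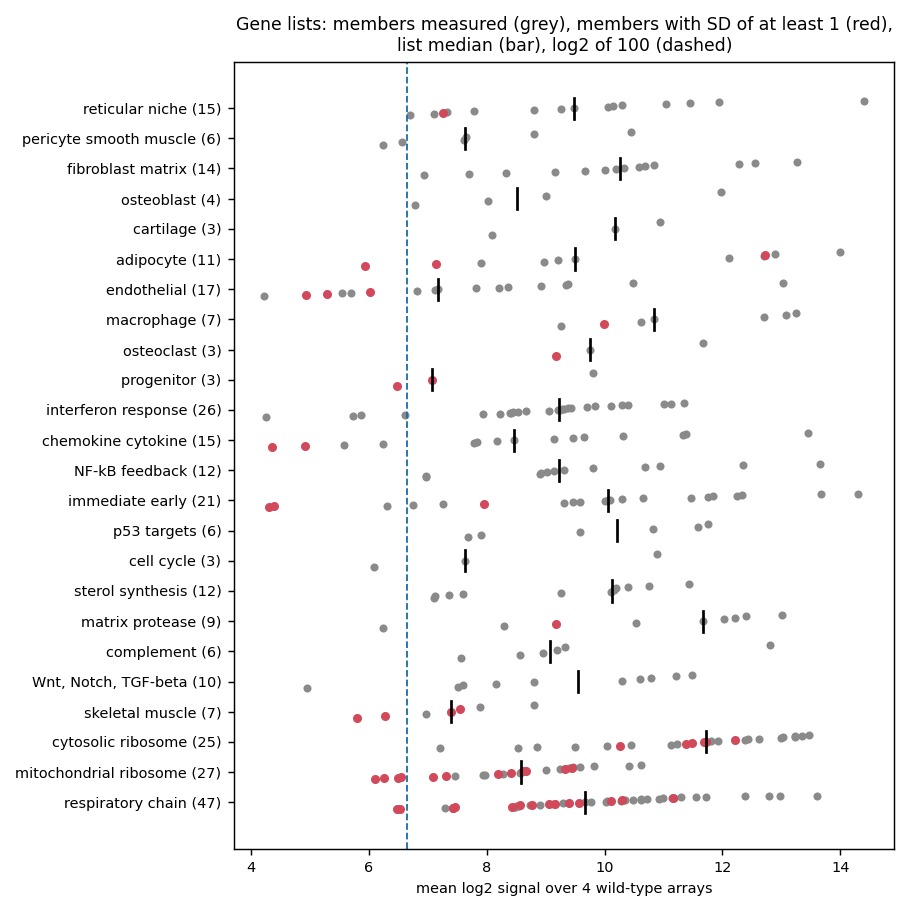
Mean log2 signal over the 4 wild-type arrays (x axis) of every measured member of each list with at least 3 (number in brackets), with members of SD 1 or more in red, the list median as a bar and the log2 of 100 dashed. The matrix protease list has a median of 11.66 and the endothelial list one of 7.17, with 6 of 17 members below the dashed line.

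Signalling programs differed in how completely they were seen. Of 24 immediate early genes 21 were measured, with a median of 10.06, among them Zfp36, an RNA-binding repressor (12.34 ± 0.28, SD, n = 4), and Ier3 (12.25 ± 0.50). Matrix proteases and inhibitors were 9 of 22, led by the collagenase Mmp13 (13.01 ± 0.25) and the inhibitors Timp1 (12.40 ± 0.50) and Timp3 (12.03 ± 0.25), with the aggrecanase Adamts5 at 12.21 ± 0.45. Complement genes were 6 of 14, and Serping1, the C1 inhibitor, was the brightest at 12.81 ± 0.34.

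Products of p53, which radiation activates, were 6 of 20. Ddit4, a regulator of mTOR (11.75 ± 0.32, SD, n = 4), the cell cycle inhibitor Cdkn1a (11.58 ± 0.50) and Ccng1 (10.83 ± 0.42) were the brightest. Unirradiated stroma was not measured, so no change with irradiation can be read from these levels. Cell cycle genes were 3 of 22, with Mki67, a proliferation marker, at 7.63 ± 0.21 and Rrm2, a ribonucleotide reductase subunit, at 10.88 ± 0.26. Wnt, Notch and TGF-beta genes were 10 of 28, with Rspo3 (11.22 ± 0.31), Sfrp1 (10.78 ± 0.53) and Dkk3 (10.60 ± 0.16), all secreted modulators of Wnt signalling. Hypoxia genes (Ndrg1 at 8.75 ± 0.54 and Slc2a1 at 8.05 ± 0.29) and Hox genes (Hoxa5 at 7.66 ± 0.36 and Hoxc8 at 6.33 ± 0.38) were each seen through 2 members.

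The low end of the table was thin. With all 4 arrays below 5 on the log2 scale taken as near background, 4 of 3109 probe sets qualified (0.129%). They were Prdm1, a transcription factor of plasma cell differentiation (4.42 ± 0.051, SD, n = 4), the interferon-induced Oasl1 (4.26 ± 0.27), the immunoglobulin kappa segment Igkv8-30 (4.32 ± 0.25) and a probe set without a gene symbol at 2.83 ± 0.073. Each had to reach 6.64 on at least 3 of the other 8 arrays to be in the table, and each did so on exactly 3. The selection therefore sets which genes appear here, and they are not a sample of genes silent in stroma. The count was 17 without wild-type 1 and 13 without wild-type 3.

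More genes were dim on some arrays only. At least 1 array lay below 5 for 72 of 1974 genes (3.65%), and a mean below 6.64 was found for 284 (14.4%). Ccl8, a monocyte chemokine, was at 6.42, 3.66, 3.66 and 3.68 on wild-type 1 to 4, and Erg, an endothelial transcription factor, at 5.33, 4.09, 3.77 and 3.71. Both were above 5 on wild-type 1 alone. Samsn1, an adaptor of haematopoietic cells (4.58 ± 0.53, SD, n = 4), and Upp1, a uridine phosphorylase (4.65 ± 0.65), were the other members of the lowest 10 not described below. In the endothelial list 4 of 17 genes had an array below 5, in the chemokine and cytokine list 3 of 15, and in the reticular list 1 of 15, Lepr.

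Spread over the 4 arrays was narrow for most of the table. The median SD was 0.43 over 3109 probe sets, and 310 (9.97%) had an SD of 1 or more. Of these 310, 256 were highest on wild-type 1 and 227 lowest on wild-type 3, against 1178 and 1196 of all 3109. The count was 195 without wild-type 1 and 198 without wild-type 3, against 417 and 409 without wild-type 2 and 4, and 198 after quantile normalization. Along a single axis lay 73.6% of the squared deviations from the probe set means. By gene, 164 of 1974 (8.31%) had an SD of 1 or more. Which genes had the 25 highest SDs depended on the arrays: 15 of the 25 were shared without wild-type 1, 13 without wild-type 3, and 14 when spread was taken as the median absolute deviation.

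**Figure D3:**
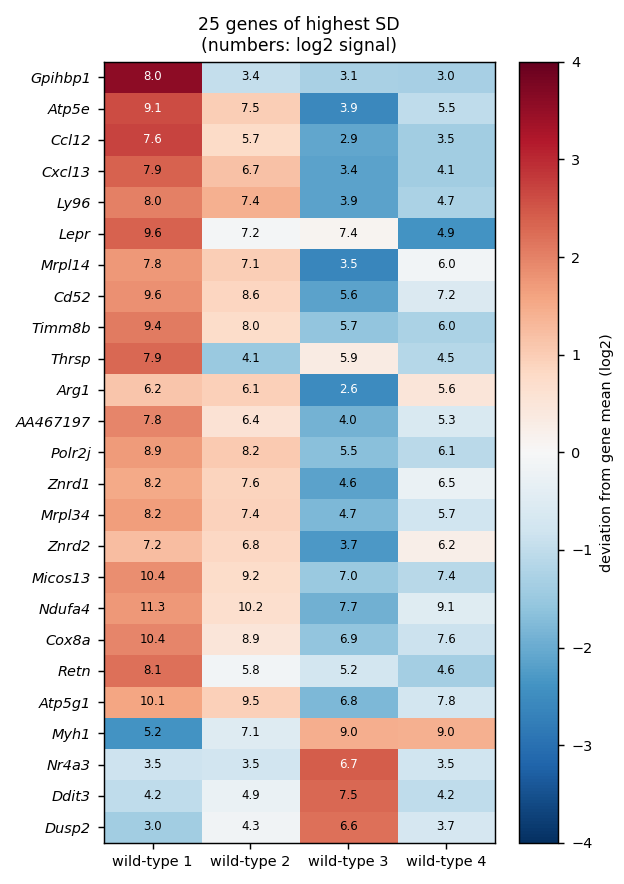
The 25 genes of highest SD (rows) on the 4 wild-type arrays (columns), with the log2 signal written in each cell and its deviation from the gene's mean as colour. Of the 25 genes 21 are highest on wild-type 1 and 17 lowest on wild-type 3, against 36.9% and 41.1% of all genes. Nr4a3, Ddit3, Dusp2 and Myh1 are highest on wild-type 3.

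Genes of the respiratory chain and of ribosomes were mostly high on wild-type 1. These groups were formed after the values were seen, and they hold 33 of the 164 genes with an SD of 1 or more. Of the other 131, 102 were also highest on wild-type 1. Of 47 measured genes of the mitochondrial respiratory chain and ATP synthase, 45 were highest on wild-type 1, against 36.9% of all genes, and 35 lowest on wild-type 3, against 41.1%. Atp5e, a subunit of ATP synthase, was at 9.13, 7.53, 3.94 and 5.52 on wild-type 1 to 4, and Ndufa4 at 11.29, 10.24, 7.66 and 9.08. In both, wild-type 1 and 2 were high and wild-type 3 lowest.

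Ribosomal genes were also mostly highest on wild-type 1. Of 27 mitochondrial ribosomal genes 24 were highest on wild-type 1 and 24 lowest on wild-type 3, and Mrpl14 went from 7.84 on wild-type 1 to 3.48 on wild-type 3. Of 25 cytosolic ribosomal genes 22 were highest on wild-type 1, with Rpl11 between 9.93 and 12.95, the exceptions being Rps29, Rpl12 and Rpl27a. Of the same 25 genes 12 were lowest on wild-type 3, near the 41.1% of all genes, and 8 on wild-type 4. An SD of 1 or more was reached by 15 of 47, 12 of 27 and 6 of 25 genes of the 3 groups, against 8.31% of all genes. These counts became 6, 9 and 3 without wild-type 1, 24, 15 and 10 without wild-type 2, 12, 2 and 6 without wild-type 3, and 19, 16 and 7 without wild-type 4. Over all genes the count of 164 became 107, 229, 92 and 225 under the same omissions. Under quantile normalization 40 of 47, 16 of 27 and 16 of 25 genes were highest on wild-type 1, and 12, 6 and 4 had an SD of 1 or more. The bacterial controls and 18S RNA, given above, were ordered the other way, lowest on wild-type 1 and highest on wild-type 3, and their part in these differences was not tested.

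**Figure D4:**
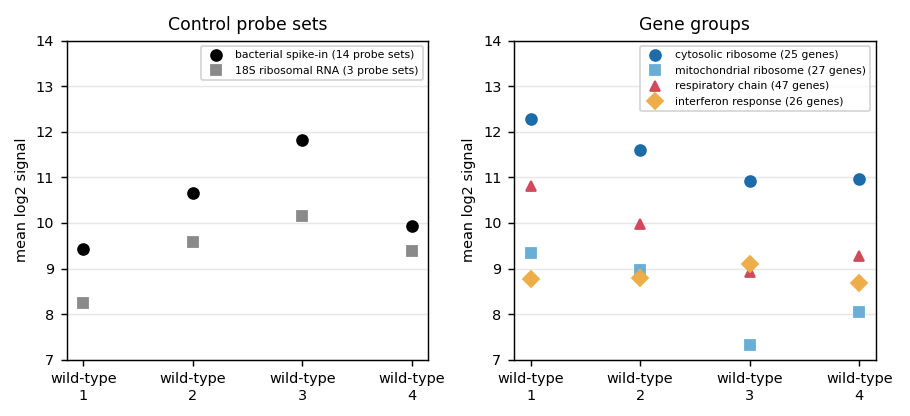
Mean log2 signal (y axis) on each wild-type array (x axis), for the 14 bacterial spike-in and 3 18S probe sets (left) and for 4 gene groups (right). Spike-ins go from 9.42 on wild-type 1 to 11.81 on wild-type 3, while the respiratory chain and ribosomal groups are highest on wild-type 1.

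More of the 25 genes of highest SD had the same high and low arrays. Among them were Timm8b and Micos13 of the mitochondrial membranes, Polr2j, a subunit of RNA polymerase II, Znrd1 and Znrd2, and also AA467197. Atp5g1, Cox8a and Mrpl34, which belong to the groups above, ran the same way. Cd52, a surface glycoprotein of leukocytes, was at 9.57, 8.60, 5.59 and 7.17 on wild-type 1 to 4. Ly96, the partner of the endotoxin receptor, was at 8.02, 7.42, 3.85 and 4.74. Arg1, the urea cycle enzyme of alternatively activated macrophages, was between 5.61 and 6.24 on 3 arrays and at 2.63 on wild-type 3. Aif1, at 11.13, 10.71, 8.60 and 9.54, and Pf4, at 13.72, 12.87, 11.00 and 11.80, ran alongside. The other 6 macrophage markers did not, with SDs from 0.16 to 0.37 as deposited. This steadiness depended on the scaling. Under quantile normalization the median SD of the macrophage list became 0.64, against 0.28 as deposited.

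Some chemokines varied widely. Of the 15 measured chemokine and cytokine genes 2 had an SD of 1 or more (13.3%), against 8.31% of all genes. Cxcl13, which draws B cells and is not in that list, was at 7.86, 6.70, 3.39 and 4.11 on wild-type 1 to 4. Ccl12, which draws monocytes, was at 7.62, 5.70, 2.85 and 3.52. Both were high on wild-type 1 and 2 and low on wild-type 3 and 4, and for both the low values lie near background, so the size of the gap is uncertain. Ccl2 and Ccl7, at 10.38, 9.84, 9.02 and 9.34 and at 10.25, 9.59, 8.53 and 9.46, were ordered the same way over a smaller range. Tnf was lowest on wild-type 1 (7.76, against 8.21 to 9.03), and Cxcl1 was highest on wild-type 3 (9.50, against 7.57 to 7.84). Of the 15 listed genes 8 were highest on wild-type 1 and 5 on wild-type 3, against 36.9% and 26.4% of all genes. The second count is near its share, and the excess of the first was not tested.

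The endothelial genes had 1 array apart. Of 17 measured, 15 were highest on wild-type 1, against 36.9% of all genes, and their mean level was 8.42 there and between 7.21 and 7.31 on the other 3 arrays. Gpihbp1, which holds lipoprotein lipase on capillary endothelium and is not in that list, was at 7.95, 3.43, 3.06 and 3.05 on wild-type 1 to 4 and had the highest SD of any named gene, 2.39. The tight junction gene Cldn5 was at 4.98, 5.82 and 5.26 on wild-type 2 to 4 and 2.18 above the highest of these on wild-type 1, and the transcription factor Sox18 at 7.20, 4.50, 4.54 and 4.92.

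For each of these 3 genes wild-type 1 was highest and the other arrays all lay below 6.64. Tie1, a receptor of endothelium, followed with 7.10 on wild-type 1 and 5.15 to 5.39 elsewhere, the VEGF receptor Kdr with 6.45 and 5.18 to 5.34, and the junction cadherin Cdh5 with 8.91 and 7.95 to 8.02. Nrarp, a Notch target, was at 5.99 on wild-type 1 and 4.55 to 4.72 elsewhere. Emcn and Stab1, at 10.48 ± 0.22 and 13.04 ± 0.11 (SD, n = 4), were the exceptions, both highest on wild-type 2, and Stab1 is also a macrophage receptor. By the Dixon gap, the share of the range that separates an extreme array from its nearest neighbour, 4 of the 17 genes had 1 array apart, against 4.36% of all genes. Without wild-type 1 none of the 17 genes had an SD of 1 or more and their median SD was 0.19, against 0.61 with it. Their list mean stayed highest on wild-type 1 under quantile normalization and median centring. Of 6 pericyte and smooth muscle genes 5 were highest on wild-type 1, against 36.9% of all genes, the exception being Cnn1. The count was 5 under quantile normalization and 4 under median centring.

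Adipocyte and reticular genes were often lowest on wild-type 4. Lepr, the leptin receptor that marks reticular cells, was at 9.60, 7.17, 7.38 and 4.87 on wild-type 1 to 4 by its brighter probe set, and its other probe set ran from 3.60 on wild-type 4 to 8.65 on wild-type 1. Of the 15 reticular and niche genes 12 were lowest on wild-type 4, against 21.6% of all genes. The count fell to 8 under quantile normalization and to 9 under median centring. Retn was at 8.13, 5.84, 5.20 and 4.58, and Thrsp, a regulator of lipid synthesis, at 7.88, 4.12, 5.92 and 4.45. For all 3 genes wild-type 1 was the highest array.

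Of the 11 adipocyte genes 9 were highest on wild-type 1 and 7 lowest on wild-type 4, against 36.9% and 21.6% of all genes. Fabp4 was at 14.34, 12.85, 12.04 and 11.68, and Cidec, a lipid droplet protein, at 8.57, 6.24, 7.59 and 6.19. Adipoq, at 12.94, 11.90, 12.33 and 11.25, and Scd1, at 13.86, 12.52, 13.03 and 12.16, were high on wild-type 1 and 3, as were Kit (8.37, 6.27, 7.47 and 6.18) and Cd34 (7.57, 5.92, 7.40 and 5.05). The adipocyte list mean was highest on wild-type 1 under both other scalings. Under quantile normalization, however, it was lowest on wild-type 2. Only 4 of 11 members were then highest on wild-type 1, and 4 were lowest on wild-type 4. The reticular list mean stayed lowest on wild-type 4 under both, while its highest array became wild-type 3 under quantile normalization.

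The widest spread of all belonged to a probe set without a gene symbol, at 14.19, 10.87, 10.99 and 4.20 on wild-type 1 to 4. It shares its highest and lowest arrays with Lepr and Retn.

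Wild-type 3 was the high array for signal-induced genes. Of 21 immediate early genes 14 were highest on it, as were 11 of 12 NF-kB feedback genes and 23 of 26 interferon response genes, against 26.4% of all genes. The NR4A orphan nuclear receptors, immediate targets of cAMP signalling through CREB, were among them. Nr4a3 was at 3.46, 3.53, 6.72 and 3.51 on wild-type 1 to 4, Nr4a2 at 7.12, 7.37, 9.44 and 7.88, and Nr4a1 at 9.72, 9.37, 11.03 and 9.90. Each was highest on wild-type 3, and the other 3 arrays lay closer to each other than to it.

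Their promoters are shown because the 3 genes moved together over the arrays. RefSeq windows of build GRCm38.p6 were searched, after the values were seen, for the core of the CREB site, TGACG, on both strands, where the reverse strand reads CGTCA. The windows are the 250 bases before the start, at chr15:101266596-101266845 (plus strand) for Nr4a1, chr2:57124004-57124253 (minus strand) for Nr4a2 and chr4:48045055-48045304 (plus strand) for Nr4a3. Capitals mark the matches, and sequences run 5′ to 3′ on the gene's strand.
Nr4a1: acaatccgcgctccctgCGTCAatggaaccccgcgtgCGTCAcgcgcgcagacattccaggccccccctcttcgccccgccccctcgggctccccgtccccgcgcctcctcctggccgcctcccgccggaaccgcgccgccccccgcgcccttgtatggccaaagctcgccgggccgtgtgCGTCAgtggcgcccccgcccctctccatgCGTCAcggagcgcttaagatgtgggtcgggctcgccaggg
Nr4a2: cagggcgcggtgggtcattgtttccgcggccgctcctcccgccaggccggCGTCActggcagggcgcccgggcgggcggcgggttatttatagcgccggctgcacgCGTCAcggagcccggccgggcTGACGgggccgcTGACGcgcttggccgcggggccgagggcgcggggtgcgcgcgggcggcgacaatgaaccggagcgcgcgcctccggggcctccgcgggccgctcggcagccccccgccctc
Nr4a3: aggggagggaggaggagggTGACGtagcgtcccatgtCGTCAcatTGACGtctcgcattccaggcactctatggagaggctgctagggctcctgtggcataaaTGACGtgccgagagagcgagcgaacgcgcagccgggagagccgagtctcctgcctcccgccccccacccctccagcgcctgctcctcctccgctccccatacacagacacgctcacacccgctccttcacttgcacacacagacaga
Each window held 4 matches and none held the full palindrome TGACGTCA. Among 32851 mouse promoter windows of the same length, 17.8% held at least 1 match, 0.137% held 4 or more and 1.55% held the palindrome, in which both cores overlap. A match describes the letters only.

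Dusp2 and Ddit3, whose windows held no match, had the same high array. Dusp2, a MAP kinase phosphatase, was at 3.00, 4.25, 6.58 and 3.70 on wild-type 1 to 4, and Ddit3, the stress factor CHOP, at 4.20, 4.93, 7.51 and 4.18. For both genes and Nr4a3, the 3 other arrays lay below 5, so the size of the gap is uncertain. The transcription factor Irf1 was at 11.05 on wild-type 3 and 9.12 to 9.55 elsewhere, Tnfaip3, a brake on NF-kB, at 9.63 and 8.77 to 8.89, and Cd83, a surface protein of activated antigen-presenting cells, at 9.75 and 7.18 to 7.72. Egr2, a zinc finger factor, stood at 10.13 on wild-type 3 and 9.35 to 9.48 elsewhere. Fos itself was highest on wild-type 2. The immediate early, NF-kB and interferon list means were highest on wild-type 3 under both other scalings too. Bacterial controls were also highest on wild-type 3, and their part in this was not tested.

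Skeletal muscle genes were lowest on wild-type 1. This list was drawn up after Myh1 was seen among the 25 genes of highest SD. Myh1, a fast myosin heavy chain, was at 5.16, 7.05, 9.02 and 8.99 on wild-type 1 to 4, Ttn, the giant sarcomere protein titin, at 4.41, 5.88, 7.25 and 7.59, and Myh8, the perinatal myosin, at 4.34, 5.25, 6.89 and 6.72. Wild-type 3 and 4 were high and wild-type 1 was lowest. Tnnt2, a troponin T of cardiac and immature muscle, was at 5.92, 6.76, 8.32 and 8.55, and Acta1, skeletal actin, at 7.89, 8.71, 9.01 and 9.63. Of 32 listed genes 7 were measured, and all 7 were lowest on wild-type 1, against 22.6% of all genes, and under both other scalings the list mean was lowest there too. Myod1, Myog and Ckm, which define muscle cells, were not among them.

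**Figure D5:**
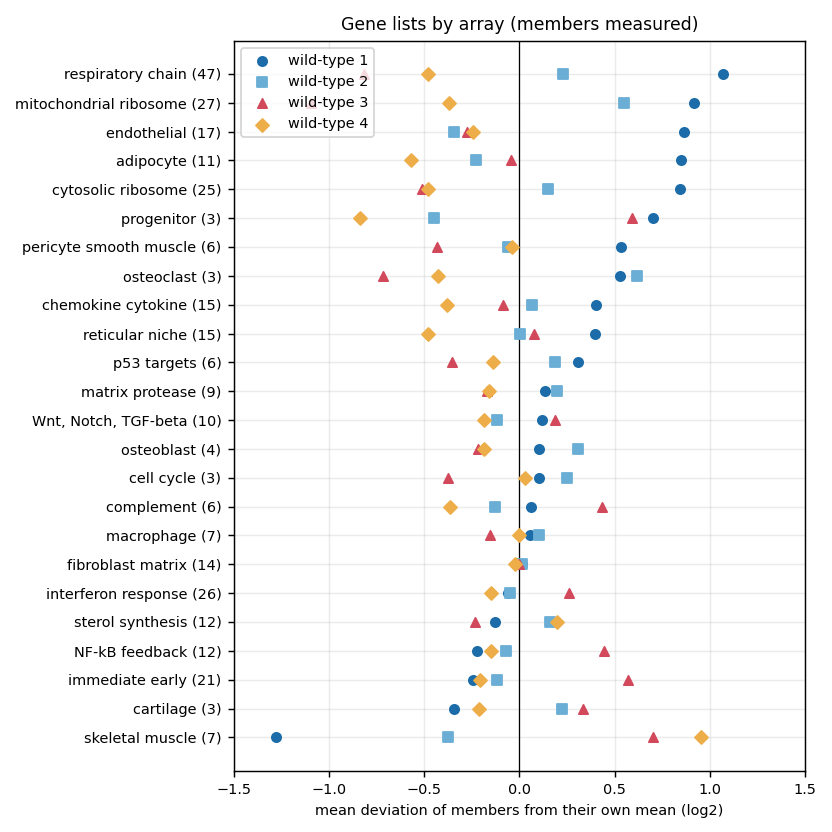
For each list with at least 3 measured members (number in brackets), the mean deviation of its members from their own means (x axis, log2) on each wild-type array (symbols). The endothelial list has wild-type 1 at 0.86 and the others between -0.34 and -0.24, while the skeletal muscle list has wild-type 1 at -1.28.

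Some programs had a smaller spread than the median gene. The 26 measured interferon response genes had a median level of 9.22 and a median SD of 0.26, against 0.41 for all genes, and none had an SD of 1 or more, against 8.31%. Without wild-type 3 their median SD was 0.14. Bst2 (11.35 ± 0.35, SD, n = 4), Trim30a (11.13 ± 0.21), Rtp4 (11.02 ± 0.15) and Oas1a (10.40 ± 0.15), all antiviral effectors, led the list, and Mx1 (6.62 ± 0.40), Cxcl10 (5.86 ± 0.27), Ifi213 (5.73 ± 0.60) and Oasl1 were its 4 members with a mean below 6.64. The 12 measured sterol synthesis genes had a median SD of 0.27, led by Hmgcs1 (11.44 ± 0.21), Msmo1 (10.76 ± 0.40) and Sqle (10.40 ± 0.33). Of the 12, 7 were highest on wild-type 2 and 5 on wild-type 4, against 20.7% and 16% of all genes. Under quantile normalization the median SD became 0.34 for the interferon list and 0.36 for the sterol list.

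Of the p53 targets 5 of 6 were highest on wild-type 1 and 5 lowest on wild-type 3, against 36.9% and 41.1% of all genes. Their median SD of 0.37 was close to the 0.41 of all genes and became 0.24 without wild-type 3, and quantile normalization made wild-type 2 the highest array of that list. Among complement genes 4 of 6 were highest on wild-type 3 and 5 lowest on wild-type 4, against 26.4% and 21.6% of all genes. The steadiest genes with a mean of at least 8 were Nacc2 (8.97 ± 0.030, SD, n = 4), the guanylate-binding protein Gbp7 (9.55 ± 0.031), Slfn2 (11.31 ± 0.037), Angpt4 (9.68 ± 0.041) and Coq10b (9.46 ± 0.046). Xaf1, an interferon-induced gene (9.44 ± 0.052), the mannose 6-phosphate receptor Igf2r (10.34 ± 0.056), Crebbp (8.52 ± 0.058), Lrp1 and Pop4 (8.49 ± 0.047) made up the rest of the steadiest 10. A small SD on the wild-type arrays stands here beside an interquartile range of 0.5001 or more over all 12, which every row had. Some of the other arrays therefore lay away from the wild-type level of these genes. Whether those arrays varied within a genotype or shifted together was not examined.

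Only deviations from each genotype's own mean were used to see how the same replicate numbers behaved elsewhere, and the labels do not say what a number shares. The number that was highest in wild type was also highest in Crebbp+/- stroma for 986 of 1974 genes and in Ep300+/- stroma for 917, and the lowest number recurred for 1047 and 723. Nr4a1, Nr4a2, Nr4a3 and Dusp2 had number 3 highest in 4 of 4 cases in Ep300+/- stroma and in 3 of 4 in Crebbp+/- stroma. Lepr was lowest on number 4 in each genotype, with deviations of -2.38 in wild-type, -3.53 in Crebbp+/- and -1.96 in Ep300+/- stroma. Of the 17 endothelial genes, 9 kept their highest number in Crebbp+/- stroma and 2 in Ep300+/- stroma. Of the 47 respiratory chain genes, 7 and 16 kept their highest number, a smaller share than of all genes in both. Their lowest number recurred for 36 of the 47 in Crebbp+/- stroma, a larger share than the 1047 of 1974 genes. In Ep300+/- stroma it recurred for 12 of the 47, a smaller share than the 723 of 1974.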

How the data were processed

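RNA of the stroma cultures was biotin-labelled and read on Affymetrix arrays. The deposited table holds log2 values per probe set, made by the authors with GCRMA per the submitters' processing notes. No version of GCRMA and no chip definition is named in these notes. The smallest interquartile range (0.5001) and the count of arrays at the log2 of 100 were read from the values, and the selection of rows is not described there.

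The deposited log2 values were used as they stand. Of 3109 probe sets, 2486 had 1 gene symbol in the platform annotation and 176 had several. Of the 2486, 2482 had a gene ID found among the RefSeq genes. Listed genes were matched by gene ID, or else by symbol. Each of 1974 genes was represented by its probe set of highest wild-type mean. Means, SDs and ranges over 4 arrays were computed with Python 3.11.15, numpy 2.4.6 and pandas 2.3.3, and the script was tested on simulated data. The number of arrays limits the precision of every SD.

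Genes named were the 4 markers, the 25 of highest mean, the 25 of highest SD, the 10 of lowest mean, and the 10 of lowest SD with a mean of at least 8. To these were added, per list, up to 4 of highest mean, up to 3 of highest SD and the members near background. Genes named beyond this rule, the muscle, ribosome and respiratory chain lists and the promoter search were chosen after values were seen. The members and all lists were chosen with earlier results of these data known. Of 518 listed genes 211 were measured. No genotype was compared, so no test between groups was run. Single arrays were held to Dixon's 95% critical value for 4 samples. Alternatives were quantile normalization, median centring, other bounds, and leaving out each array.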

Additional observations from a re-analysis of the deposited data

Results flagged for a closer look

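Of 290 values examined, 20 had 1 array far from the other 3 by the Dixon gap (above Dixon's 95% critical value for 4 samples), where chance gives about 1 in 20 and 4.36% of all 1974 genes had one. Some of the values belong to genes named for their high SD, so neither share is a like-for-like reference. Wild-type 1 was the high array for the endothelial list mean (8.42) and for Tmsb10 (14.40), Plk2 (9.76), Cdh5 (8.91), Gpihbp1 (7.95), Sox18 (7.20), Tie1 (7.10), Kdr (6.45), Ccl8 (6.42), Nrarp (5.99) and Oasl1 (4.67). Wild-type 3 was the high array for the immediate early list mean (10.29) and for Nfkbia (14.02), Trim30a (11.45), Egr2 (10.13), Tnfaip3 (9.63), Cxcl1 (9.50) and Nr4a3 (6.72). Lrp1 was low on wild-type 1 (13.22) and Angpt4 low on wild-type 2 (9.62), both among the 10 steadiest genes. Endothelial genes and signal-induced genes, each examined both singly and as a list, are not independent entries.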

How the results depend on the processing

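No paired analysis was possible because only 1 genotype is described, so there is no second group to pair it with. The median level, 8.09, became 8.48 when only probe sets with a mean of at least the log2 of 100 were kept. The 4 probe sets near background became 7 under quantile normalization, 1 with a bound of 4 and 147 with a bound of the log2 of 100, and between 4 and 17 when 1 array was left out (17 without wild-type 1, 13 without wild-type 3). The 310 probe sets with an SD of 1 or more became 198 under quantile normalization, and between 195 and 417 when 1 array was left out (195 without wild-type 1, 198 without wild-type 3). Leaving out wild-type 1 or 3 thus lowered the count of 310, while leaving out wild-type 2 or 4 raised it, to 417 and 409. The cause of the shifts was not tested. The means of the 4 markers moved by less than 1 SD in 28 of 28 recomputations, and 143 of 158 list median SDs stayed within 1.5 times. An SD over 4 arrays is imprecise, and values below 5 lie near background, where differences are uncertain.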
